A study of Mus musculus with 12 samples.

Results

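Carbonic anhydrase genes and genes of the vacuolar proton pump (V-ATPase) were taken from the deposited expression table by symbol. A gene belonged when its symbol was Car with a number and an optional a or b, or began with Atp6v or Atp6ap. This gave 42 genes of 48034 in the table, 16 carbonic anhydrase genes and 26 V-ATPase genes. Poly(A) RNA was sequenced from IMCD3 cells, an established line from mouse inner medullary collecting duct, of which all 12 libraries used the subclone 53a. In this subclone mifepristone induces a mutant form of a tubule transcription factor that acts as a dominant negative. The 4 groups of 3 libraries (A, B and C) were vehicle, vehicle plus 100 mM added NaCl, mifepristone, and mifepristone plus 100 mM added NaCl. Cells without the inducible mutant were not analysed here, so an action of mifepristone itself and an action of the mutant cannot be told apart, and the subclone is a single line in culture. Whether the 3 libraries of each group were separate cultures is not stated, so the p-values reflect only how far these libraries differ, which can be technical variation.

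Carbonic anhydrases catalyse the reversible hydration of carbon dioxide to bicarbonate and a proton, in the cytosol, in mitochondria, on the cell surface or in secretions. The V-ATPase pumps those protons across membranes: its soluble V1 sector hydrolyses ATP, its membrane V0 sector carries the proton, and subunit isoforms direct the pump to lysosomes, Golgi and endosomes or to the plasma membrane. In the collecting duct, intercalated cells hold abundant cytosolic carbonic anhydrase and a plasma membrane pump built with the B1 and a4 isoforms, through which they acidify urine. All other cells use the ubiquitous isoforms of the pump to acidify lysosomes and endosomes.

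The files held 41940955 to 49270776 reads per library. The libraries carried the markers of collecting duct and tubule epithelium (10 of 10 reached an FPKM of 1), but hardly any of intercalated cells: 1 of 15 reached an FPKM of 1, Slc26a4 (pendrin), at up to 1.41. Foxi1, the transcription factor that defines intercalated cells, had 1 read in all 12 libraries. Of 11 principal cell markers 1 reached an FPKM of 1 (Scnn1a), and Aqp2 had 13 reads in all. The summed FPKM of the 15 intercalated markers, with Atp6v1b1 and Atp6v0a4 among them, lay between 1.21 and 1.34 in vehicle and 0.999 and 1.06 in vehicle plus NaCl. It lay between 2.4 and 2.51 in mifepristone, and 3 and 3.28 in mifepristone plus NaCl. The listed genes did not move together. From vehicle to mifepristone, mean FPKM went from 0.245 to 0.965 for Atp6v1b1 and from 0.0529 to 0.467 for Slc26a4, but from 0.114 to 0.0265 for Slc4a9. In mifepristone plus NaCl it was 1.36 for Slc26a4 and 0.564 for Aqp6, but 0.0216 for Atp6v1b1. Sums of other marker lists were also higher in mifepristone than in vehicle. For 11 principal cell markers they were 2.83 to 3.31 against 1.04 to 1.16, for 5 fibroblast markers 5.61 to 6.31 against 0.249 to 0.342, for 7 adipocyte and muscle markers 9.83 to 12.2 against 2.77 to 3.52, and for 10 osteoclast and macrophage markers 5.43 to 5.83 against 3.74 to 4.33. For 5 proximal tubule markers they were lower, at 0.37 to 0.535 against 1.16 to 1.49. Few genes carried these differences. Mean FPKM in vehicle and mifepristone was 0.578 and 2.08 for Scnn1a (principal cell) and 0.078 and 5.69 for Dcn (fibroblast). It was 2.94 and 10.5 for Mb (muscle), 3.11 and 4.04 for Cd68 (macrophage) and 1.2 and 0.207 for Lrp2 (proximal tubule). Listed genes that went the other way included Scnn1g (0.123 and 0.0893), Col1a1 (0.206 and 0.17), Ptprc (0.0656 and 0.0119) and Cubn (0.124 and 0.245). In RNA from a whole culture, fewer cells of a type and less RNA per cell cannot be told apart.

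Of the 42 genes, 24 had an FPKM (fragments scaled to transcript length and library size) of at least 1 in at least 3 libraries and were tested: 5 carbonic anhydrase genes (Car2, Car13, Car5b, Car12 and Car11) and 19 V-ATPase genes. Of these, Atp6v1g2 passed through the mifepristone libraries alone. The test was limma on log2(FPKM + 0.5) across 14044 genes, with a call at an adjusted p under 0.05. Mifepristone without NaCl raised 9, Atp6v1g2 included, and lowered 6 of the 24 (background over all tested genes 59.7% called, 28.3% higher and 31.5% lower). With NaCl present it again raised 9 and lowered 6 (background 58.7%, with 26.8% higher and 31.9% lower). Added NaCl raised 7 and lowered 7 in vehicle cells (background 56.7%, with 25.2% higher and 31.5% lower). In mifepristone cells it raised 8 and lowered 5, Atp6v1g2 included (background 58.7%, with 24.5% higher and 34.2% lower). These counts lie near the background, and the median change of the 24 (0.01, 0.07, 0.04 and 0.06 in the same order) lay near that of all tested genes (-0.01, -0.03, -0.02 and -0.06). Calls with an absolute log2 fold change of at least 0.5 numbered 4, 3, 3 and 6, against backgrounds of 20.6%, 20.7%, 17.6% and 18.9% of all tested genes. Leaving out vehicle plus NaCl B or mifepristone plus NaCl B took the 9 raised by mifepristone with NaCl to 4 and 5, and leaving out vehicle A or vehicle plus NaCl B took the 7 lowered by NaCl in vehicle cells to 4 each. With quantile normalization, added NaCl raised 13 and lowered 6 in mifepristone cells.

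**Figure D1:**
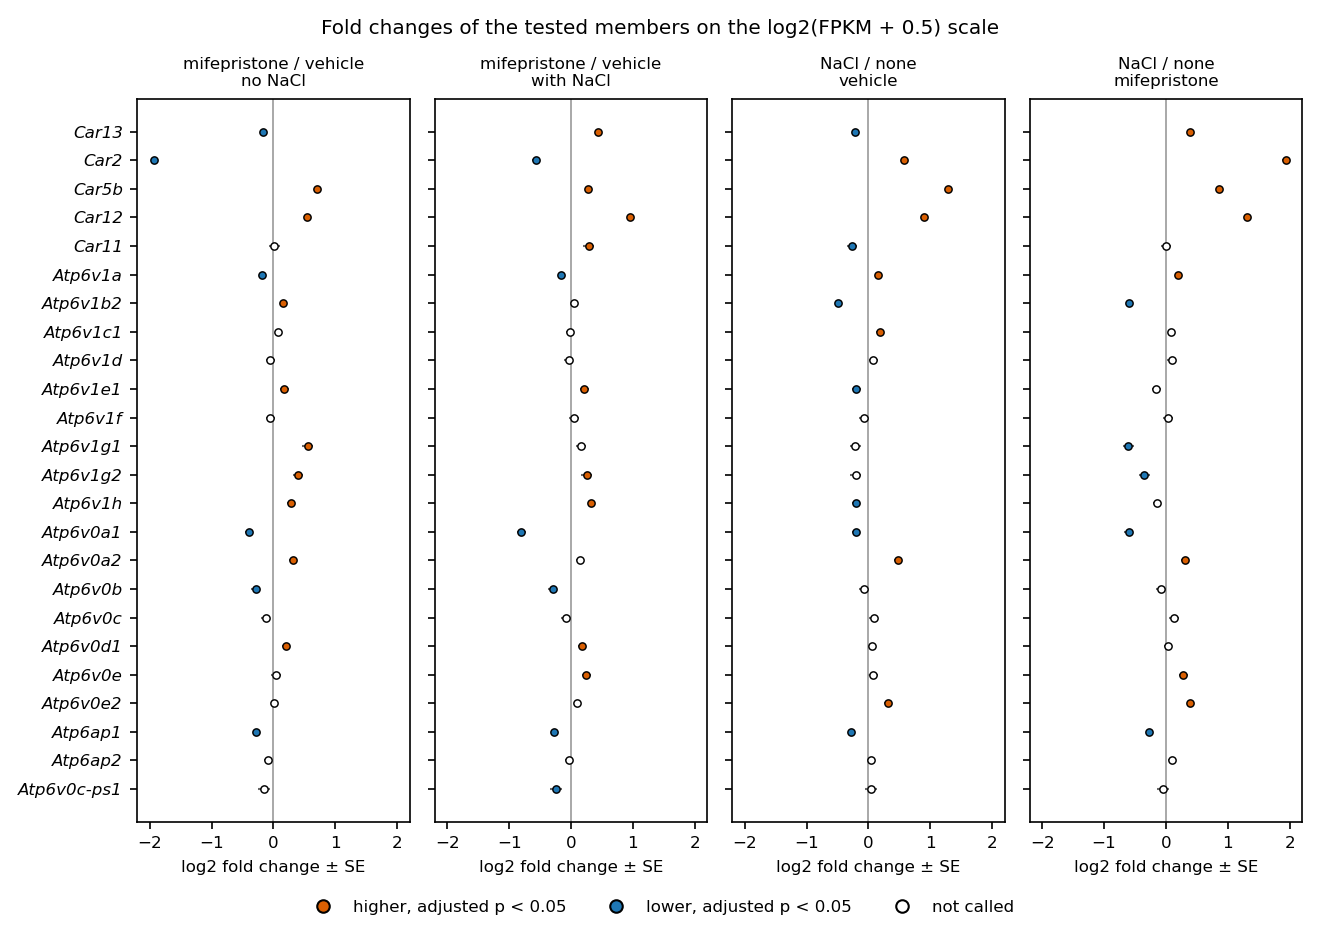
Log2 fold change with its standard error (horizontal axes) of each of the 24 tested genes (rows) in 4 comparisons, on the log2(FPKM + 0.5) scale of the limma fit over 12 libraries, with filled points for adjusted p under 0.05. The carbonic anhydrase genes at the top spread from -1.92 to 1.94, whereas the V-ATPase genes stay between -0.80 and 0.55.

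Car2 encodes the fast cytosolic carbonic anhydrase II and lies at chr3:14886273-14900770 (GRCm38). Its FPKM was 9.95, 9.83 and 8.96 in vehicle A, B and C, and 2.12, 2.29 and 2.05 in mifepristone. With NaCl it was 15.3, 13.8 and 14.7 in vehicle cells and 10.1, 10.0 and 8.92 in mifepristone cells. The mifepristone libraries were the lowest and the vehicle plus NaCl libraries the highest, and only vehicle and mifepristone plus NaCl, at means of 9.58 ± 0.542 and 9.66 ± 0.645 (SD, n = 3), overlapped.

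Mifepristone lowered Car2 3.80-fold without NaCl (log2 fold change -1.92, SE 0.061, limma adjusted p = 5.45e-10) and 1.48-fold with NaCl (-0.57, adjusted p = 1.06e-05). NaCl raised it 1.5-fold in vehicle cells (0.58, adjusted p = 1.3e-05) and 3.83-fold in mifepristone cells (1.94, adjusted p = 6.09e-10). The mifepristone effect was thus smaller with NaCl than without, by 1.35 ± 0.086 (SE) on the log2 scale (limma adjusted p = 1.35e-06). In the authors' deposited table the fall of Car2 with the mutant was -2.13 on the log2 scale with an adjusted p of 3.66e-36, and the gene carried their mark of a nearby ChIP peak. That table gives an adjusted p for 32 of the 42 genes in this comparison, and it was below 1 for 3 of them, Car2, Atp6v1b1 and Atp6v1c2. Car5b, at 0.755, was not among them. In the authors' comparison of NaCl with none in wild type, Car2 was at 0.603 with their adjusted p at 2.3e-15. How the authors tested the mutant comparison is not known here, so a gene outside the 3 is not thereby shown to be unchanged.

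Car13, another cytosolic isoform, at chr3:14641727-14663002, turned direction with NaCl. Its FPKM was 6.11, 5.91 and 6.25 in vehicle, 5.28, 5.04 and 5.28 in vehicle plus NaCl, 5.46, 5.21 and 5.47 in mifepristone and 7.61, 6.96 and 6.97 in mifepristone plus NaCl. Each treatment alone gave levels below all 3 vehicle libraries, and the combination gave levels above them. Mifepristone lowered it by 0.16 on the log2 scale without NaCl (limma adjusted p = 0.00661) and raised it by 0.43 with NaCl (adjusted p = 6.03e-06), and this difference of 0.60 ± 0.061 (SE) was called (adjusted p = 4.03e-05). The sizes were small, at most 1.35-fold. Car13 was chosen for these values per library after they were seen, since its pairwise changes lie under 0.5.

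Car5b, one of the mitochondrial carbonic anhydrases, lies at chrX:163976822-164027997. Its FPKM was 6.15, 5.48 and 5.99 in vehicle, 15, 14.6 and 15.6 in vehicle plus NaCl, 9.69, 9.73 and 10.4 in mifepristone, and 18.8, 18.4 and 18.1 in mifepristone plus NaCl. No groups overlapped, and the order ran from vehicle over mifepristone and vehicle plus NaCl to both together. NaCl raised it 2.45-fold in vehicle cells (log2 fold change 1.29, SE 0.046, limma adjusted p = 2.12e-09) and 1.82-fold in mifepristone cells (0.86, adjusted p = 4.24e-08). Mifepristone raised it 1.64-fold without NaCl (0.71, adjusted p = 1.69e-07) and 1.21-fold with it (0.28, adjusted p = 0.000321). The mifepristone effect was smaller with NaCl by 0.43 ± 0.066 (SE) on the log2 scale (adjusted p = 0.000628).

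Car12 encodes a transmembrane enzyme whose active site faces the outside of the cell, and lies at chr9:66713686-66766845. Its FPKM was 4.59, 4.77 and 5.11 in vehicle, 7.39, 7.45 and 6.99 in mifepristone, 8.92, 9.53 and 9.90 in vehicle plus NaCl, and 18.6, 18.6 and 18.8 in mifepristone plus NaCl. The groups did not overlap, and the libraries with both treatments lay highest. Mifepristone raised it 1.46-fold without NaCl (log2 fold change 0.55, limma adjusted p = 1.72e-06) and 1.93-fold with NaCl (0.95, adjusted p = 1.68e-08). NaCl raised it 1.87-fold in vehicle cells (0.90, adjusted p = 4.38e-08) and 2.47-fold in mifepristone cells (1.30, adjusted p = 1.6e-09). The mifepristone effect was larger with NaCl by 0.40 ± 0.067 (SE) on the log2 scale (adjusted p = 0.00114), so Car12 and Car5b, which rose in all 4 comparisons, had interactions of opposite sign.

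Car11 encodes a carbonic anhydrase-related protein without the catalytic activity of the family. It lay at the filter, between 0.622 and 1.14 FPKM, and changed little: NaCl lowered it by 0.27 in vehicle cells on the log2 scale (limma adjusted p = 0.0197) and mifepristone raised it by 0.28 with NaCl (adjusted p = 0.0132), by 0.42 and 0.45 on recovered reads. The second was 0.17 with quantile normalization (adjusted p = 0.127). The first call was lost without vehicle A (adjusted p = 0.0587) or vehicle plus NaCl B (0.0852), and the second without vehicle plus NaCl B (0.0597) or mifepristone plus NaCl A (0.0582).

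**Figure D2:**
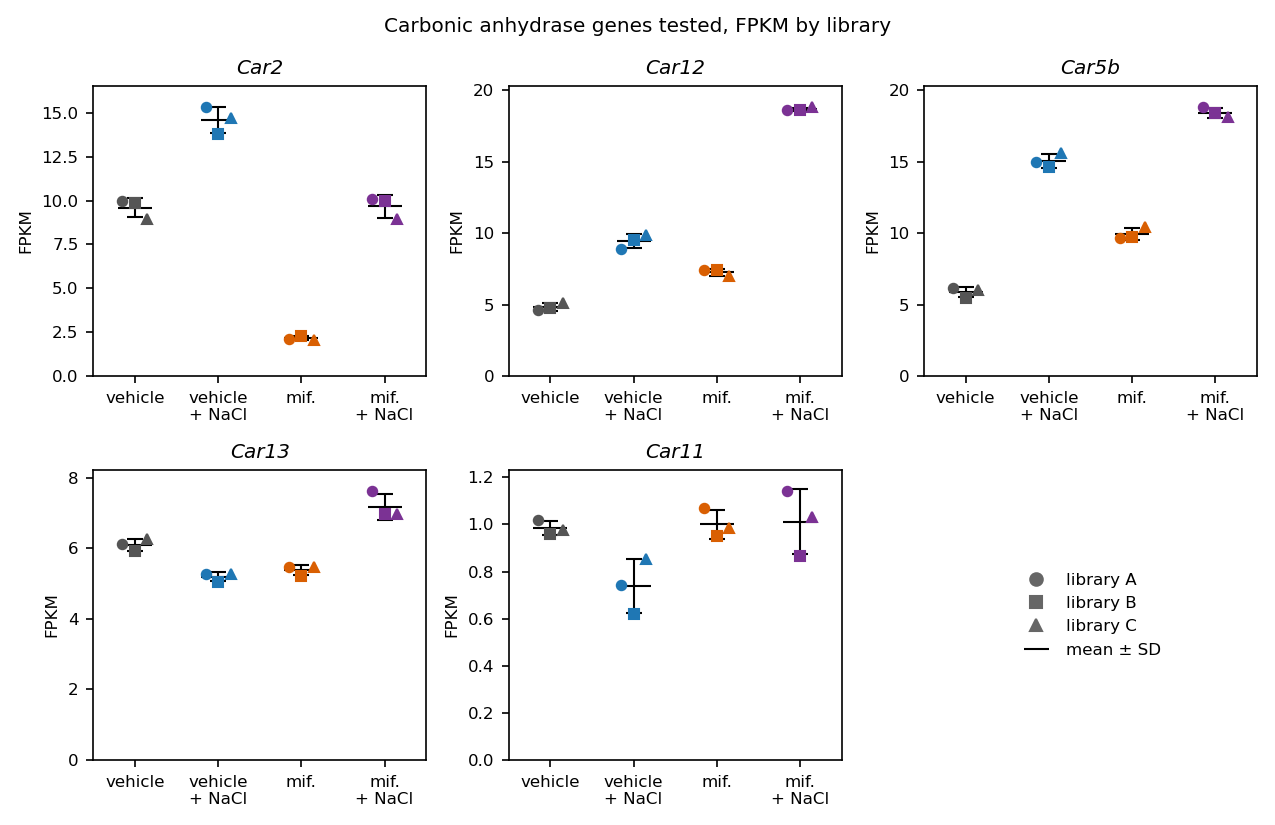
FPKM (vertical axes, linear, from 0) of the 5 tested carbonic anhydrase genes in each of 12 libraries by group, with mif. for mifepristone, + NaCl for 100 mM added NaCl, marker shape for the library letter, and bars for mean ± SD. Car2 is lowest in mifepristone without NaCl, while Car12 and Car5b are highest where both treatments were given.

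Summed over the 16 genes, which compares levels per length, carbonic anhydrase FPKM was 28.7, 27.7 and 28.1 in vehicle and 26.3, 26.2 and 26.3 in mifepristone. It was 46.0, 44.4 and 47.0 in vehicle plus NaCl and 57.1, 55.6 and 55.0 in mifepristone plus NaCl. The sum stayed near its vehicle level with mifepristone alone, lay higher in both NaCl groups, and did not overlap between any groups. Its make-up differed more: Car2 held 34.0% ± 1.89 (SD, n = 3) of the sum in vehicle and 8.20% ± 0.498 in mifepristone, while Car5b went from 20.9% ± 0.924 to 37.8% ± 1.40 and Car12 from 17.2% ± 1.09 to 27.7% ± 1.03. In both NaCl groups Car5b held 33.0%, while Car2 held 31.8% in vehicle cells and 17.3% in mifepristone cells. These shares are a description and were not tested.

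**Figure D3:**
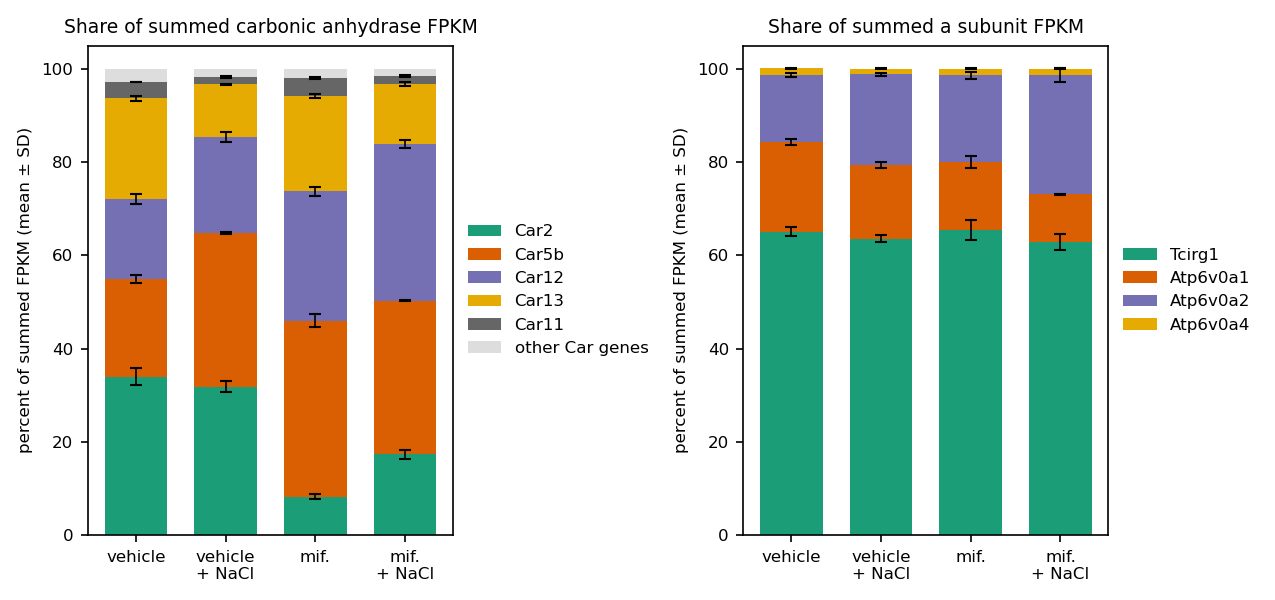
Percent of summed FPKM (vertical axes, mean ± SD of 3 libraries) held by each carbonic anhydrase gene (left) and by each gene of the V-ATPase a subunit (right) in the 4 groups, with mif. for mifepristone. The Car2 share is 34.0% in vehicle and 8.20% in mifepristone, and the Atp6v0a1 share is 19.1% in vehicle and 10.2% in mifepristone plus NaCl.

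The other 11 carbonic anhydrase genes fell below the filter. Their highest FPKM was 0.39 (Car7), 0.385 (Car15), 0.353 (Car14), 0.113 (Car9), 0.0447 (Car5a), 0.0444 (Car4), 0.0254 (Car6), 0.016 (Car1), 0.0152 (Car3), 0.00687 (Car10) and 0.00617 (Car8). Of these, Car7, Car14 and Car15 had at least 10 reads in at least 3 libraries and entered a limma-voom fit on reads recovered from the FPKM values (18349 genes, chosen after seeing the data). In that fit NaCl raised Car7, a cytosolic isoform, in mifepristone cells, from 18, 24 and 23 reads to 40, 32 and 48 (log2 fold change 0.91, adjusted p = 0.00279). Mifepristone lowered Car15, a membrane-anchored isoform, from 14, 16 and 24 reads to 11, 8 and 7 (-1.08, adjusted p = 0.0122), a call that was lost without vehicle C (adjusted p = 0.0515). Car15 shares 1253 of its 1906 exon bases with Gm20518 on the same strand, whose highest FPKM was 0.106, so the Car15 reads are uncertain. Car14 shares 445 exon bases with Aph1a on the opposite strand, and no source used here tells whether counting used strand, so its reads are uncertain.

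Car9, the surface isoform known as a hypoxia target, had 3, 3 and 2 reads in vehicle, 2, 0 and 0 in vehicle plus NaCl, 2, 5 and 3 in mifepristone and 7, 10 and 13 in mifepristone plus NaCl. Only the combination stood apart: its 30 reads against 10 in mifepristone alone gave a ratio per library size of 3.10 (95% exact counting interval 1.47 to 7.10), which covers counting error only. Car9 also shares 214 exon bases with an antisense transcript, and it was chosen after its values were seen.

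Of the V-ATPase genes, mifepristone without NaCl raised 7, Atp6v1g2 included, and lowered 4 of 19 (background 59.7% of all tested genes called), and with NaCl raised 5 and lowered 5 (58.7%). NaCl raised 4 and lowered 5 in vehicle cells (56.7%), and the same numbers in mifepristone cells (58.7%), with Atp6v1g2 among those lowered there. Changes were small: a call reached an absolute log2 fold change of 0.5 for 1, 1, 0 and 3 of the 19 (background 20.6%, 20.7%, 17.6% and 18.9%), and summed FPKM over the 26 genes was 785 ± 48.2 (SD, n = 3) in vehicle, 765 ± 17.4 in vehicle plus NaCl, 848 ± 67.9 in mifepristone and 778 ± 25.1 in mifepristone plus NaCl. The vehicle libraries overlapped all other groups in this sum, and the mifepristone libraries, at 801 to 925, lay above both NaCl groups. Vehicle A and mifepristone C were the highest of their 3 libraries for 73.7% each of the 19 genes. In these libraries a gene's deviation from its group mean went with exon length (Spearman rho -0.44 and -0.51 across 13916 genes, which are not independent). With both left out, mifepristone raised 9 and lowered 6 of all 24 tested genes without NaCl and raised 12 and lowered 6 with it, and NaCl raised 8 and lowered 7 in vehicle cells and raised 12 and lowered 5 in mifepristone cells.

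Among the tested V1 subunits, Atp6v1g1, a G subunit of the peripheral stalk (chr4:63544772-63550750), had the highest level and the largest changes. Its FPKM was 163, 144 and 138 in vehicle, 202, 207 and 247 in mifepristone, 131, 124 and 127 in vehicle plus NaCl, and 150, 148 and 131 in mifepristone plus NaCl. All mifepristone libraries lay above all others, while the 2 NaCl groups overlapped. Mifepristone raised it 1.47-fold without NaCl (log2 fold change 0.55, SE 0.088, limma adjusted p = 0.000235) and NaCl lowered it 1.52-fold in mifepristone cells (-0.61, adjusted p = 0.000127). With NaCl the mifepristone difference was 0.16 (adjusted p = 0.136).

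Atp6v1b2, the ubiquitous B2 subunit of the ATP-hydrolysing head (chr8:69088646-69113711), fell with NaCl. Its FPKM was 26.4, 25.5 and 24.5 in vehicle and 27.6, 28.2 and 29.4 in mifepristone, against 18.4, 17.9 and 17.7 in vehicle plus NaCl and 18.8, 19.0 and 17.9 in mifepristone plus NaCl. The NaCl libraries all lay below the others and overlapped with each other. The fall was 1.40-fold in vehicle cells (-0.49, limma adjusted p = 1.32e-06) and 1.52-fold in mifepristone cells (-0.60, adjusted p = 1.83e-07). Its partner Atp6v1a, the catalytic A subunit, went the other way by less: NaCl raised it by 0.16 and 0.19 on the log2 scale (adjusted p = 0.00717 and 0.00227), and mifepristone lowered it by 0.19 without NaCl and 0.16 with it (adjusted p = 0.00201 and 0.00614).

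The other tested V1 subunits moved by at most 0.40. Atp6v1f, the second highest V1 gene, had an FPKM of 122, 104 and 106 in vehicle, 105, 104 and 106 in vehicle plus NaCl, 98.5, 102 and 120 in mifepristone and 110, 110 and 106 in mifepristone plus NaCl, and was called in none of the 4 comparisons. Atp6v1d, of the rotating central stalk, was not called in any of them either, with a largest difference of 0.09. Atp6v1h, the regulatory H subunit, rose with mifepristone by 0.28 without NaCl and 0.33 with it on the log2 scale (limma adjusted p = 0.00225 and 0.000753). Atp6v1g2, the G isoform known from neurons, had a mean FPKM of 1.22 ± 0.147 (SD, n = 3) in mifepristone, each library above 1, and 0.576 to 0.938 in the other 9 libraries. Since it entered the FPKM fit through mifepristone alone, that fit is no test of its rise there or of its fall from there with NaCl. In the fit on recovered reads described with Car7 above, whose filter all 12 libraries passed, mifepristone without NaCl raised it 1.51-fold (limma-voom adjusted p = 0.00161, background 55.5% of genes called), and it shares 144 exon bases with Nfkbil1 on the opposite strand.

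Atp6v1b1, Atp6v1c2 and Atp6v0a4, isoforms known from intercalated cells or a few other tissues, stayed under an FPKM of 1 in all 12 libraries. The first 2 had the largest changes of the V-ATPase genes in the fit on reads. Atp6v1b1 encodes B1, the isoform that takes the place of B2 in the plasma membrane pump of intercalated cells, and lies at chr6:83742990-83758855. It had 41, 52 and 54 reads in vehicle and 193, 192 and 217 in mifepristone, but 6, 2 and 3 in vehicle plus NaCl and 3, 5 and 5 in mifepristone plus NaCl. The NaCl libraries lay near 0 whatever the other treatment, and the mifepristone libraries without NaCl lay highest. At its highest it reached 0.999 FPKM, and there B1 made up 3.29% ± 0.104 (SD, n = 3) of summed B subunit FPKM, against 0.955% ± 0.123 in vehicle.

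Corrected for library size, Atp6v1b1 was 3.93-fold higher with mifepristone than with vehicle without NaCl (95% exact counting interval 3.28 to 4.74; limma-voom adjusted p = 3.17e-08). NaCl lowered it 13.4-fold in vehicle cells (7.26 to 27.4; adjusted p = 8.05e-07) and 44.9-fold in mifepristone cells (26.0 to 84.8; adjusted p = 4.74e-09). With NaCl, 13 reads against 11 gave a ratio of 1.17 (0.485 to 2.89; adjusted p = 0.587). The interaction was -1.68 (adjusted p = 0.0132, background 26.6% called and 5.17% called at 1 or more), and without vehicle plus NaCl A it was -1.29 (adjusted p = 0.0643). The background of the voom fit was 55.5% of genes called for mifepristone without NaCl, 52.2% for NaCl in vehicle cells and 56.2% for NaCl in mifepristone cells, and 13.4%, 10.7% and 13.2% were called with an absolute log2 fold change of at least 1. In the authors' deposited table the rise of Atp6v1b1 with the mutant was 1.94 (adjusted p = 1.29e-05). Of the other 14 markers of intercalated cells, none reached an FPKM of 1 apart from Slc26a4, and their part in the Atp6v1b1 result was not tested.

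Atp6v1c2, the C2 subunit known from kidney and lung, at chr12:17284721-17329359, rose with both treatments. It had 5, 5 and 1 reads in vehicle, 8, 13 and 11 in vehicle plus NaCl, 45, 45 and 48 in mifepristone and 90, 82 and 99 in mifepristone plus NaCl, and no groups overlapped. Its summed reads, corrected for library size, were 12.1-fold higher with mifepristone without NaCl (95% exact counting interval 6.53 to 24.7). With NaCl they were 8.4-fold higher (5.81 to 12.5). Atp6v1c2 passed the read filter only through the mifepristone groups, so the voom fit is no test of these rises. With a filter of any FPKM above 0 in 3 libraries, met in each group, the FPKM fit gave 0.84 and 1.24 (limma adjusted p = 6e-07 and 2.81e-08). With NaCl the summed reads were 2.91-fold higher in vehicle cells (1.43 to 6.39) and 2.03-fold higher in mifepristone cells (1.64 to 2.51). The voom fit gave log2 fold changes of 1.65 (limma-voom adjusted p = 0.00711) and 1.01 (adjusted p = 0.000244) for these. The first was 0.95 without vehicle C. In the authors' deposited table the rise with the mutant was 2.81 (adjusted p = 1.29e-06). Even at its highest it was 1.11% ± 0.045 of summed C subunit FPKM. It shares 50 exon bases with Pdia6 on the opposite strand, whose mean FPKM was 46.5 in vehicle, 40.4 in vehicle plus NaCl, 40.5 in mifepristone and 43.7 in mifepristone plus NaCl. Both genes were chosen after their values were seen.

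**Figure D4:**
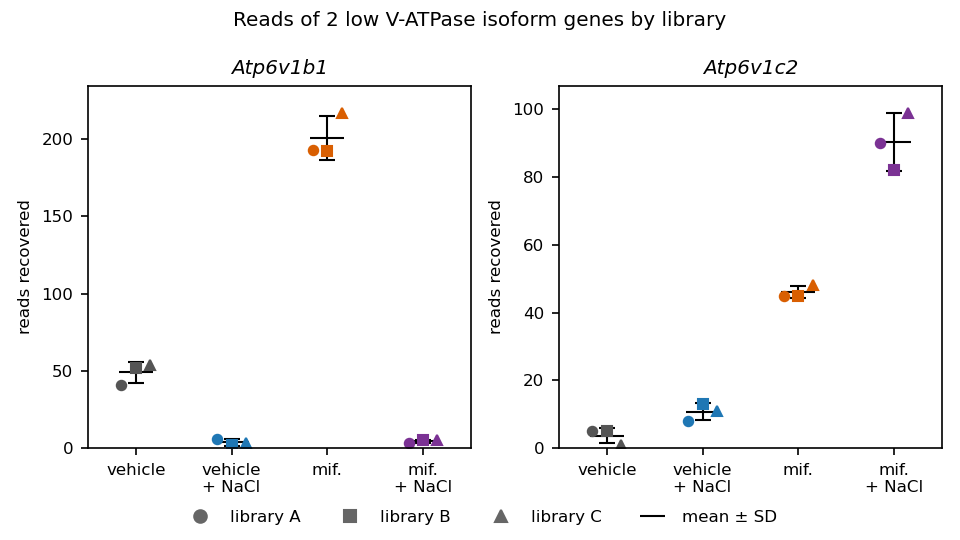
Reads recovered (vertical axes, linear, from 0) for Atp6v1b1 and Atp6v1c2 in each of 12 libraries by group, with mif. for mifepristone, + NaCl for 100 mM added NaCl, marker shape for the library letter, and bars for mean ± SD. Atp6v1b1 has 192 to 217 reads in mifepristone and 2 to 6 in the NaCl groups, whereas Atp6v1c2 is highest, at 82 to 99 reads, where both treatments were given.

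Among V0 subunits, the a1 and a2 isoforms of the a subunit, which places the pump in a given membrane, moved in opposite directions. Atp6v0a1 (chr11:101009452-101063719) had an FPKM of 9.69, 10.4 and 10.5 in vehicle, 8.35, 9.28 and 8.78 in vehicle plus NaCl, 7.81, 8.36 and 6.71 in mifepristone and 4.85, 4.71 and 4.92 in mifepristone plus NaCl. Vehicle was highest and the combination lowest, and only vehicle plus NaCl and mifepristone overlapped. Mifepristone lowered it 1.32-fold without NaCl (-0.40, SE 0.069, limma adjusted p = 0.000455) and 1.74-fold with NaCl (-0.80, adjusted p = 1.73e-06). NaCl lowered it 1.52-fold in mifepristone cells (-0.60, adjusted p = 2.03e-05), and the mifepristone fall was larger with NaCl by 0.40 ± 0.097 (SE) on the log2 scale (adjusted p = 0.00935).

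Atp6v0a2, the a2 isoform of Golgi and endosomes, rose with NaCl by 0.47 in vehicle cells and 0.30 in mifepristone cells (limma adjusted p = 5.75e-05 and 0.00122) and with mifepristone by 0.31 without NaCl (adjusted p = 0.000899). The a3 isoform of lysosomes and osteoclasts is encoded by Tcirg1, whose symbol lies outside the rule. It was the main a subunit gene in all groups, at 62.9% to 65.5% of their summed FPKM. Tcirg1 itself fell with mifepristone under NaCl (-0.25, limma adjusted p = 0.000127) and with NaCl in mifepristone cells (-0.20, adjusted p = 0.0008). Neither mifepristone without NaCl nor NaCl in vehicle cells gave a call for it. The a1 share went from 19.1% ± 0.638 (SD, n = 3) in vehicle to 10.2% ± 0.0937 in mifepristone plus NaCl, and the a2 share from 14.5% ± 0.508 to 25.6% ± 1.57. Atp6v0a4, the a4 isoform of intercalated cells, held 1.26% to 1.44% in all 4 groups. It had an FPKM between 0.592 and 0.804 in the 12 libraries, and shares 259 exon bases with D630045J12Rik on the same strand, so its reads are uncertain. On recovered reads NaCl lowered Atp6v0a4 by 0.25 in mifepristone cells (limma-voom adjusted p = 0.0297), a call lost without mifepristone A (adjusted p = 0.0658) or B (0.107), or mifepristone plus NaCl A (0.111) or B (0.0652).

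The 2 V0 genes with the highest level were Atp6v0d1, of the stalk's docking site, and Atp6v0b, of the proton-carrying ring. Atp6v0b had an FPKM of 51.2, 46.2 and 46.6 in vehicle, 47.6, 44.1 and 44.9 in vehicle plus NaCl, 35.6, 37.5 and 44.7 in mifepristone and 38.3, 36.6 and 35.9 in mifepristone plus NaCl. All mifepristone libraries lay below their counterparts, with mifepristone C, at 44.7, the closest, and the fall was 0.29 without NaCl and 0.30 with it on the log2 scale (limma adjusted p = 0.00661 and 0.00592). Atp6v0e2, of the small e subunit, rose with NaCl by 0.31 in vehicle cells and 0.40 in mifepristone cells (adjusted p = 0.000374 and 4.98e-05), and Atp6v0e by 0.28 in mifepristone cells (adjusted p = 0.00893). Atp6v0c, which encodes the c subunit of the ring, was called in none of the 4 comparisons, with differences of at most 0.13. It may share reads with its processed pseudogene Atp6v0c-ps1, also tested.

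Of the accessory proteins, Atp6ap1, which takes part in pump assembly (chrX:74297097-74304721), fell with each treatment by a like amount. Its FPKM was 42.1, 40.9 and 40.2 in vehicle, 34.5, 33.4 and 33.6 in vehicle plus NaCl, 33.1, 33.5 and 34.6 in mifepristone and 28.1, 28.1 and 27.4 in mifepristone plus NaCl. Either treatment alone gave overlapping levels under those of vehicle, and both gave the lowest. The log2 fold changes were -0.28, -0.28, -0.28 and -0.27 in the 4 comparisons (limma adjusted p = 1.69e-05, 1.89e-05, 2.68e-05 and 2.44e-05), with an interaction of 0.00 ± 0.045 (SE, adjusted p = 0.95). Atp6ap2, the (pro)renin receptor, had an FPKM of 49.6, 47.4 and 42.8 in vehicle, 49.0, 46.8 and 47.6 in vehicle plus NaCl, 42.0, 41.8 and 47.9 in mifepristone and 48.1, 47.4 and 45.1 in mifepristone plus NaCl, and was called in none. The remaining V-ATPase genes stayed below the filter, with a highest FPKM of 0.071 for Atp6v1e2, 0.0221 for the osteoclast isoform Atp6v0d2, 0.0172 for Atp6ap1l and 0.0106 for Atp6v1g3.

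Several small V-ATPase calls of the 4 pairwise comparisons, all at or under 0.26 in absolute log2 fold change, lay close to the threshold and were lost when any of several libraries was left out. Atp6v1e1, a peripheral stalk subunit that rose with mifepristone by 0.18 without NaCl and 0.22 with it and fell by 0.19 with NaCl in vehicle cells, lost the first call without any of 9 libraries (adjusted p from 0.05 to 0.148), with a rise of 0.10 without mifepristone C. These were vehicle B and C, mifepristone C and all 6 libraries with NaCl. The second was lost without vehicle plus NaCl B (0.0517) or C (0.0501) or mifepristone plus NaCl B (0.0582). The third was lost without vehicle A (0.12) or B (0.052) or vehicle plus NaCl B (0.0818) or C (0.079). Atp6v0d1 had an FPKM of 59.7, 54.3 and 52.4 in vehicle, 59.7, 62.2 and 69.9 in mifepristone, 59.7, 55.7 and 57.2 in vehicle plus NaCl and 68.6, 64.5 and 63.4 in mifepristone plus NaCl. Its rise of 0.20 without NaCl did not hold without vehicle B (adjusted p = 0.0645), vehicle C (0.0798) or mifepristone C (0.0596), and that of 0.18 with NaCl without vehicle plus NaCl B (0.104) or C (0.0793), or A (0.115) or B (0.0587) of mifepristone plus NaCl.

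The rise of Atp6v0e by 0.25 with mifepristone under NaCl was lost without vehicle plus NaCl B (adjusted p = 0.0556) or C (0.0514), or A (0.0578) or B (0.0547) of mifepristone plus NaCl. That of Atp6v1g2 by 0.26 was 0.42 on recovered reads and 0.11 with quantile normalization (adjusted p = 0.296), and was lost without vehicle plus NaCl A (0.0602) or B (0.0878) or mifepristone plus NaCl B (0.0981) or C (0.0864). The fall of Atp6v0c-ps1 by 0.24 in the same comparison was lost without any of 7 libraries (adjusted p from 0.0547 to 0.171), namely vehicle C, vehicle plus NaCl A and C, mifepristone B, and mifepristone plus NaCl A, B and C. In vehicle cells, the fall of Atp6v0a1 with NaCl by 0.20 was lost without vehicle B (0.0817) or C (0.0818) or vehicle plus NaCl A (0.102) or C (0.0682). There too the fall of Atp6v1h by 0.20 was lost without vehicle A (0.0679) or vehicle plus NaCl B (0.0513), and the rise of Atp6v1c1, the ubiquitous C1 subunit, by 0.18 without vehicle C (0.0608) or vehicle plus NaCl A (0.0583).

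The interaction, the mifepristone effect with NaCl minus that without, was called for 6 of the 24 genes, 3 in each direction (background 31.1% of all tested genes), and for 2 with an absolute size of at least 0.5 (background 10.0%). These were Car2 (1.35), Car13 (0.60), Car12 (0.40), Car5b (-0.43), Atp6v0a1 (-0.40) and Atp6v1g1 (-0.39). Of the 5 tested carbonic anhydrase genes 4 were among them, and of the 19 V-ATPase genes 2. The call of Atp6v1g1 (limma adjusted p = 0.0338) was lost without any of 7 libraries (adjusted p from 0.05 to 0.0739), namely vehicle B and C, vehicle plus NaCl A, B and C, and mifepristone plus NaCl B and C.

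The authors' deposited table marks genes with a nearby ChIP peak. Of the 24 tested genes 7 carried the mark (29.2%), against 28.4% of all 14044 tested genes, so the mark was about as frequent among them as elsewhere. The marked genes were Car2, Car12, Atp6v0a1, Atp6v0d1, Atp6v0e, Atp6v1c1 and Atp6v1h, and, below the filter, Atp6v0a4. Among the 3 largest movers of them, Car2 and Atp6v0a1 fell with mifepristone and Car12 rose.

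Promoter windows of 250 bases before the start site were available from RefSeq (GRCm38.p6) for 29 of the 42 genes, 16 of them tested. They were searched on both strands for CACGTG, the E-box of the TFEB family of lysosomal transcription factors, for its longer form TCACGTGA, which contains it, for GTTAAT, a half-site, and for ACGTG, the hypoxia response element core, which CACGTG also contains. CACGTG was in the windows of 3 genes (10.3%), Atp6v0b, Atp6v1a and Car6, against 6.86% of 27025 genes overall. Only Atp6v1a held TCACGTGA (0.907% overall). GTTAAT was in the windows of Atp6v0a4 and Atp6v1g3 (6.90% against 7.49% overall), and ACGTG in those of 8 genes (27.6% against 18.5%). A match describes letters in a window and not a bound site. Windows are given here for some of the genes that bear a match or a mark or changed most. They run 5′ to 3′ on the gene's strand, with CACGTG and GTTAAT in capitals. Among those not printed are Atp6v0a1, Atp6v0d1 and Atp6v0e, which bear the mark, and Car6 and Atp6v1g3, which bear a match. The Atp6v0a1 window holds none of these motifs. Atp6v0a4 (chr6:38124587-38124836, minus strand) bears both the peak mark and GTTAAT, 62 bases before the start. Atp6v1a (chr16:44139260-44139509, minus strand) holds its E-box 131 bases before the start, and Atp6v0b (chr4:117887330-117887579, minus strand) holds a pair of them close to the start. Car12 (chr9:66713436-66713685, plus strand) bears the mark, and Atp6v1b1 (chr6:83742767-83743016, plus strand) had the largest fall with NaCl; neither window holds any of these motifs.
Atp6v0a4: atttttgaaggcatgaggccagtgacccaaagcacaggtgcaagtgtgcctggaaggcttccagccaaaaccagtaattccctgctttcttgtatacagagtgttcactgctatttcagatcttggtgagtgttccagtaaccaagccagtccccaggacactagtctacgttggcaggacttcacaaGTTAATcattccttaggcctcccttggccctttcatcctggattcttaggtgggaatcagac
Atp6v1a: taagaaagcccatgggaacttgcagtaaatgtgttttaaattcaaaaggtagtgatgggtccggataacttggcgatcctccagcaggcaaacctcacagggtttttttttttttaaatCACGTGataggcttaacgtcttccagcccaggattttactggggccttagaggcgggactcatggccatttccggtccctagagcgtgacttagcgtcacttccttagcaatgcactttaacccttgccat
Atp6v0b: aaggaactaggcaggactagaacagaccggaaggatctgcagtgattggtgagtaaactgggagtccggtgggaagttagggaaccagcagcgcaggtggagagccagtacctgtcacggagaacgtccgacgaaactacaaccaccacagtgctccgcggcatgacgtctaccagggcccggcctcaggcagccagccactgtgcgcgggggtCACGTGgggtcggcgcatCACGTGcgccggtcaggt
Car12: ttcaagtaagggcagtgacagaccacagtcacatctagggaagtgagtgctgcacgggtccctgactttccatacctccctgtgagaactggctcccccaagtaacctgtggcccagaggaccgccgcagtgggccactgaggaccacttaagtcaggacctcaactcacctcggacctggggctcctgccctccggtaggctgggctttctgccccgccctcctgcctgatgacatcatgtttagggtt
Atp6v1b1: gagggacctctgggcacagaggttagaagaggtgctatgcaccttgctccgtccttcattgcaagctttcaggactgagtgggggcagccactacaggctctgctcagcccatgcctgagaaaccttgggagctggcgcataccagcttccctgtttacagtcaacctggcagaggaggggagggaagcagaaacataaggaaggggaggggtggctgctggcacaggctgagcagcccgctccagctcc

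Atp6v1a and Atp6v0b, the tested genes with an E-box in the window, both fell slightly with mifepristone, and under NaCl Atp6v1a rose while Atp6v0b was not called (-0.07 and -0.08, limma adjusted p = 0.422 and 0.383).

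Other genes of the pathway were read from lists outside the rule. Of 13 tested genes of the a3 subunit, pump assembly and regulators, mifepristone without NaCl raised 1 and lowered 2 (background 59.7% of all tested genes called) and with NaCl raised 4 and lowered 2 (58.7%). NaCl raised 3 and lowered 3 in vehicle cells (56.7%) and raised 3 and lowered 5 in mifepristone cells (58.7%), with Tldc2 among those raised in each. Oxr1, a TLDc protein of the group that binds the pump, had the largest mifepristone change, from 100 ± 1.69 FPKM (SD, n = 3) to 261 ± 15 without NaCl (1.37, limma adjusted p = 6.12e-10). Ncoa7, on the same list, fell in that comparison (-0.70, adjusted p = 6.1e-06). The related Tldc2 was at 0.387 ± 0.0287 FPKM in vehicle and 3.37 ± 0.348 in vehicle plus NaCl, and it passed the filter only through the NaCl groups, so these values are a description with no test. Rogdi, a subunit of the RAVE assembly complex, fell with NaCl by 0.74 and 0.62 (adjusted p = 7.87e-06 and 2.33e-05). Dmxl2, on the same list, rose with NaCl by 0.79 in vehicle cells and 0.81 in mifepristone cells (adjusted p = 0.000493 and 0.000375). These genes were chosen after their values were seen.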

How the data were processed

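Gene expression was measured by RNA sequencing in 12 libraries. FPKM values of 48034 genes were deposited by the authors for each library. Columns named by the mutant were assigned to mifepristone samples through their NaCl wording, their letter and what is known of the study. The authors' deposited comparison tables hold, per the file headers, a mean signal per gene (normalized counts), log2 fold changes, adjusted p-values and a mark of a nearby peak. The submitters' processing notes name GRCm38, STAR 2.4.2a, Trimmomatic 0.32, DESeq2 1.12.3 and SAMtools 1.0. Not given in the sources used here are the counter, its annotation and the use of strand. The number of columns of values without a sample was 0.

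Whole reads recovered from FPKM and the mean signal came out whole for 100.0% of values (tolerance 0.05). The 14044 genes that reached an FPKM of 1 in 3 or more libraries entered limma 3.58.1 (R 4.3.3; trended, robust) on log2(FPKM + 0.5), 4 group means and 8 residual degrees of freedom, with Benjamini-Hochberg adjustment. Fold changes of low genes are understated on that scale. The scripts were tested on simulated data. Members and lists were chosen with earlier results of these data known. Named per library were members called at 0.5 or more and the 2 highest of each class, others as stated. A voom fit on reads used genes with at least 10 reads in at least 3 libraries. Gene positions come from GENCODE M21. Alternatives covered the pseudocount (0.1 and 1), the filter, scaling, weights, a replicate block, voom, p under 0.01 and each library left out.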

Additional observations from a re-analysis of the deposited data

Results flagged for a closer look

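The mifepristone effect differed between cells with and without NaCl, by the interaction test of limma, for 6 tested genes, against a background of 31.1% of all tested genes. With NaCl minus without, the difference in log2 fold change was 1.35 for Car2, 0.60 for Car13, 0.40 for Car12, -0.43 for Car5b, -0.40 for Atp6v0a1 and -0.39 for Atp6v1g1. On recovered reads, where 26.6% of 18349 genes were called, the difference was -1.68 for Atp6v1b1. Atp6v1b1 passed the read filter only through the groups without NaCl, so that fit is no test of its difference. The value rests on 11 and 13 reads in the NaCl groups, and was -1.29 without vehicle plus NaCl A. Among the genes named here, only Car2 had an interaction with an adjusted p under 0.05 in the authors' deposited table (1.56, their adjusted p = 0.000431). How the authors tested it is not known here.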

How the results depend on the processing

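Across 25 alternatives, 15 of the 63 calls of the 24 tested genes were lost under at least 1, and 0 changed direction. Of the 18 calls of at least 0.5, 0 were lost. Counts moved by over 1.5 times in a few settings. NaCl raised 13 genes in mifepristone cells with any FPKM above 0 in 3 libraries, where more genes are tested, and 13 with quantile normalization. The first of these filters gave 5 raised interactions. Library quality weights gave 12 genes raised by NaCl in vehicle cells. The voom fit with the read filter, chosen after seeing the data, gave 8 lowered by NaCl in mifepristone cells, Atp6v1b1 included. At an adjusted p under 0.01, 4 were raised by mifepristone with NaCl and 3 were lowered by NaCl in vehicle cells. Leaving out each library gave 4 to 10 and 4 to 8 for the last 2 counts. Where no construction shows it, the cause was not tested. With a replicate block, mifepristone raised 8 and lowered 6 without NaCl and raised 7 and lowered 6 with NaCl, and NaCl raised 7 and lowered 6 in vehicle cells and raised 8 and lowered 5 in mifepristone cells. The interaction was called for 3 higher and 2 lower. The letters did not pair the libraries: deviations of same-lettered libraries correlated from -0.50 to 0.27, and 0 libraries correlated best with their own letter.

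On the log2(FPKM + 0.5) scale without the filter at 1, changes of the low genes were smaller, as the pseudocount is near or above their level: 0.98, -0.52 and -1.49 for Atp6v1b1 and 0.84, 1.24, 0.18 and 0.58 for Atp6v1c2, all still called. Counts under 10 reads limit Car9, Atp6v1c2 in vehicle and Atp6v1b1 with NaCl to counting precision.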

Other observations

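Lysosomal genes, which depend on the pump for an acid lumen, were read from a list of 31 (30 tested). Mifepristone without NaCl raised 8 and lowered 13 (background 28.3% of all tested genes higher and 31.5% lower), with a median log2 fold change of -0.05 against -0.01 over all tested genes, and with NaCl raised 6 and lowered 15 (background 26.8% and 31.9%, median -0.12 against -0.03). NaCl raised 6 and lowered 14 in vehicle cells (background 25.2% and 31.5%) and raised 5 and lowered 15 in mifepristone cells (24.5% and 34.2%). Npc1, which exports cholesterol from lysosomes, went from 3.12 ± 0.256 FPKM (SD, n = 3) in vehicle to 13.0 ± 1.73 in mifepristone (1.89, limma adjusted p = 8.9e-09), while its partner Npc2 fell with NaCl from 69.9 ± 3.55 to 38.4 ± 0.527 (-0.85, adjusted p = 6.66e-07). The hydrolase genes Gaa, Manba, Glb1, Ctsd and Asah1 fell with mifepristone by 0.82, 0.70, 0.63, 0.56 and 0.56 on the log2 scale. Tfeb, a transcription factor of lysosomal genes, rose with mifepristone from 1.92 ± 0.0301 to 3.66 ± 0.35 FPKM (0.78, adjusted p = 1.12e-06).

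Of 30 acid-base transporter genes 12 were tested, and mifepristone without NaCl raised 6, Slc26a4 included, and lowered 6 (background 28.3% and 31.5%). Slc4a11, a proton and water transporter, went from 22.0 ± 1.73 to 4.16 ± 0.266 FPKM (-2.27, limma adjusted p = 2.75e-10). Slc26a4, the chloride and bicarbonate exchanger of intercalated cells, was listed at 0.0529 ± 0.0192 FPKM in vehicle and 0.467 ± 0.0352 in mifepristone, and at 0.0263 ± 0.00881 and 1.36 ± 0.0654 with NaCl. It passed the filter only through mifepristone plus NaCl, so these values are a description with no test. Both lists and the genes named were chosen after earlier results of these data were known.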
